A study of Homo sapiens with 9 samples.

Results

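Genes of the RAS-ERK growth factor pathway, 10 in all, are described here in U251 cells with and without knockdown of the RNA-binding protein Musashi1 (MSI1). They are the ERBB receptor ligands HBEGF and EREG, the ERK phosphatases DUSP4, DUSP5 and DUSP6, the Sprouty inhibitors SPRY2 and SPRY4, and the ETS transcription factors ETV1, ETV4 and ETV5. These 10 genes, of 20848 in the deposited gene count tables, were chosen from a pathway list with the knockdown fold changes of these same libraries in view. Their knockdown fold changes are therefore a description and not a test of the group. All 10 were among the 13856 genes that passed the filter on low counts.

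U251 is an established human glioblastoma line. RNA-seq covered 3 control samples, titled WT, and 3 samples titled Msi1 KD, and iCLIP covered 3 further WT samples. The iCLIP method crosslinks protein to RNA with ultraviolet light in cells, here semi-confluent plates, and maps the crosslinked nucleotides, here with a rabbit monoclonal antibody against MSI1. The study asked how expression and splicing respond to the loss of MSI1, and where on RNA the protein sits. The labels do not say how MSI1 was knocked down, what the control cells received, or whether replicates were separate cultures, so the spread behind each p-value is that of these libraries and may be technical.

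As background, growth factors such as HBEGF and EREG are made as membrane proteins, cut free by ADAM proteases, and bind EGFR and other ERBB receptors. The receptors activate RAS, RAF, MEK and ERK in turn. Active ERK induces genes that restrain it, among them the DUSP phosphatases, which remove the activating phosphates from ERK, and the Sproutys, which act between receptor and RAF. The PEA3 group of ETS factors, ETV1, ETV4 and ETV5, are induced and activated by the same pathway, and the repressor CIC holds several of these genes down when ERK is inactive. EGFR signalling is a common feature of glioblastoma.

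Gene counts summed to 32919299 to 47277016 per RNA-seq library, and 1746795, 145718 and 208722 iCLIP sites were listed for replicates 1, 2 and 3. Normalised expression is given in CPM, edgeR's counts scaled by library size and TMM factors. For the cell type markers below, CPM was scaled by library size alone. MSI1 levels were 16.0, 17.7 and 7.59 CPM in the controls and 3.15, 5.11 and 2.26 CPM in the knockdowns, replicates 1, 2 and 3 in order. The MSI1 groups did not overlap, but the log2 fold change of −1.97 (SE 0.42) had an adjusted p of 0.0699 by edgeR's quasi-likelihood test. The adjusted p was 0.00279 in an edgeR fit that holds the replicate number as a block. That fit takes same-numbered libraries as pairs and leaves 2 residual degrees of freedom. On the first principal component (62.5% of the variance) control replicate 3 scored 80.6 and the other 5 libraries −40.9 to 10.4. Glioma and astrocyte markers summed to between 6421 and 7450 CPM in every library, although S100B was at only 1.09 to 2.40 CPM. CD44 (3192 to 3768 CPM) and VIM (2191 to 2701 CPM) made up most of that sum. GFAP was at 101, 72.3 and 18.2 CPM in the controls and 103, 85.5 and 38.1 CPM in the knockdowns, lowest in control replicate 3. Of the 7 markers of this list 6 passed the filter on low counts. PTPRC, CD3E, ITGAM, PECAM1, KRT5 and STMN2, which mark leukocytes, endothelium, epithelium and neurons, had at most 3 counts in each library, but other markers of those lists were detected. The sums in controls and knockdowns were 4.10 to 6.90 and 4.36 to 5.80 CPM for leukocytes, 13.4 to 13.9 and 22.4 to 25.5 for endothelium, 120 to 268 and 209 to 325 for epithelium, and 19.7 to 29.6 and 26.4 to 31.97 for neurons. None of the 13 tested markers of these 5 lists passed the test. The part of these differences in the results below was not tested.

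ETV1 and HBEGF were the members with the largest fold changes and the ones that passed the test. Both were about 3-fold higher in the knockdown, ETV1 by 3.06-fold and HBEGF by 2.90-fold in mean CPM. Because several of the results turn on these genes, the stretches of their 3′ untranslated regions (UTRs) that hold TACATTT are shown first, with the corresponding stretch of ETV5, the most abundant member. In an earlier analysis of these same libraries this 7-letter word was picked for its relation to the knockdown fold change, so its presence here is a description only. The word is in capitals, 5′ to 3′ on the gene's strand, from GENCODE release 29 on GRCh38, at chr7:13892676-13892704 and chr7:13892176-13892204 (ETV1), chr3:186047589-186047617 (ETV5) and chr5:140333482-140333510 (HBEGF), all on the minus strand.
ETV1 first match: atgcttgtgatTACATTTaggggatgctc
ETV1 second match: ttattttttaaTACATTTcttttggtgtt
ETV5: cacctgagttgTACATTTttgaagtgtgc
HBEGF: tattgtctgtcTACATTTctgcagatctt

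HBEGF encodes heparin-binding EGF-like growth factor, a ligand of EGFR and ERBB4, and its gene spans 139692612 to 139706372 of chromosome 5, minus strand (hg18, as all coordinates in the deposited files). Its levels were 5.13, 3.88 and 6.26 CPM in the controls and 14.4, 11.99 and 17.8 CPM in the knockdowns, replicates 1, 2 and 3 in order as in all such lists below. Every knockdown library was above every control library, and within each pair of same-numbered libraries the log2 ratio was between 1.49 and 1.63. The mean rose from 5.09 ± 1.19 to 14.7 ± 2.94 CPM (SD, n = 3 per group, as for every ± in the RNA-seq values), a log2 fold change of 1.54 (SE 0.25, adjusted p = 0.0373, edgeR). These are bulk libraries, so a change in RNA per cell and a change in the share of cells that make it cannot be told apart.

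EREG encodes epiregulin, a ligand of EGFR and ERBB4 that is also shed from the membrane (chromosome 4, 75449724 to 75473341, plus strand). It was the least abundant member, with 71, 31 and 63 raw counts in the controls and 65, 75 and 79 in the knockdowns. The groups overlapped, at 0.797 to 1.96 CPM in controls and 1.53 to 1.99 in knockdowns. The log2 fold change of 0.34 (SE 0.36) did not pass the test (adjusted p = 0.751, edgeR). Its SE, which is derived from the same test, was larger than the change itself. With 1 library left out the log2 fold change ranged from 0.05 (without control replicate 2) to 0.68 (without control replicate 3).

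Of the phosphatases, DUSP4 separated the groups, while DUSP5 and DUSP6 did not. DUSP4 is a nuclear phosphatase of ERK and related kinases (chromosome 8, 29249537 to 29264104, minus strand). DUSP4 was at 9.37, 9.26 and 5.73 CPM in the controls and 15.6, 16.7 and 14.1 in the knockdowns. All 3 knockdown libraries lay above all 3 controls, and control replicate 3 was the lowest library. The log2 fold change was 0.93 (SE 0.24), with an adjusted p of 0.107 by edgeR and of 0.0137 with the replicate block.

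DUSP5, a nuclear phosphatase specific for ERK (chromosome 10, 112247615 to 112261292, plus strand), was at 20.03, 19.1 and 23.3 CPM in the controls and 21.96, 18.8 and 20.8 in the knockdowns. The groups overlapped, and the log2 fold change of −0.02 (SE 0.16, adjusted p = 0.975, edgeR) changed sign with DESeq2's size factors (0.02). DUSP6, a cytoplasmic phosphatase specific for ERK and a widely used readout of ERK activity (chromosome 12, 88265968 to 88270427, minus strand), was at 11.5, 15.5 and 16.9 CPM in the controls and 16.0, 22.8 and 18.7 in the knockdowns. Knockdown replicate 1 lay below control replicate 3, so the groups overlapped. In the 3 same-numbered pairs the DUSP6 log2 ratio was 0.47, 0.56 and 0.14, and the fitted log2 fold change was 0.39 (SE 0.22, adjusted p = 0.480, edgeR, and 0.0961 with the block), or 0.24 without control replicate 1 or knockdown replicate 2.

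Of the Sprouty genes, SPRY4 had groups that were apart and SPRY2 had groups that overlapped. SPRY4 (chromosome 5, 141670176 to 141684804, minus strand) was at 19.7, 23.8 and 11.8 CPM in the controls and 30.3, 43.1 and 29.3 in the knockdowns. Its groups did not overlap, with a log2 fold change of 0.89 (SE 0.29) and an adjusted p of 0.191 by edgeR, 0.0140 with the block. SPRY2 (chromosome 13, 79808113 to 79813087, minus strand) was at 15.8, 14.8 and 12.7 CPM in the controls and 15.2, 18.8 and 12.7 in the knockdowns. Knockdown replicate 2 alone lay above the controls, and the log2 fold change was 0.11 (SE 0.20, adjusted p = 0.882, edgeR). Whether SPRY4 and SPRY2, or DUSP4 and DUSP5, differed from each other in their response was not tested.

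The 3 ETV factors were each higher in every knockdown library than in every control library. ETV1 (chromosome 7, 13897383 to 13997575, minus strand) was at 21.3, 26.6 and 30.9 CPM in the controls and 65.6, 87.7 and 88.0 in the knockdowns. The lowest knockdown library was 2.12 times the highest control library, and the mean rose from 26.2 ± 4.79 to 80.4 ± 12.8 CPM. The log2 fold change was 1.62 (SE 0.20, adjusted p = 0.0158, edgeR), with pair ratios of 1.62, 1.72 and 1.51 on the log2 scale. It stood at rank 65 of the 13856 genes by p.

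ETV4 (chromosome 17, 38960737 to 38979288, minus strand) was at 5.70, 7.56 and 3.55 CPM in the controls and 11.5, 24.9 and 9.83 in the knockdowns. The libraries were spread more widely than those of ETV1: knockdown replicate 2 was 2.53 times knockdown replicate 3. The log2 fold change of 1.46 (SE 0.43) had an adjusted p of 0.154 by edgeR and of 0.00639 with the block, and the replicate 2 pair was the highest in both groups. Without knockdown replicate 2 the ETV4 log2 fold change was 0.93. ETV5 (chromosome 3, 187246800 to 187309595, minus strand) was at 65.0, 69.7 and 50.3 CPM in the controls and 88.0, 107.9 and 90.9 in the knockdowns. The ETV5 mean was 61.6 ± 10.1 against 95.6 ± 10.7 CPM, a log2 fold change of 0.63 (SE 0.17, adjusted p = 0.128, edgeR, and 0.0134 with the block).

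**Figure D1:**
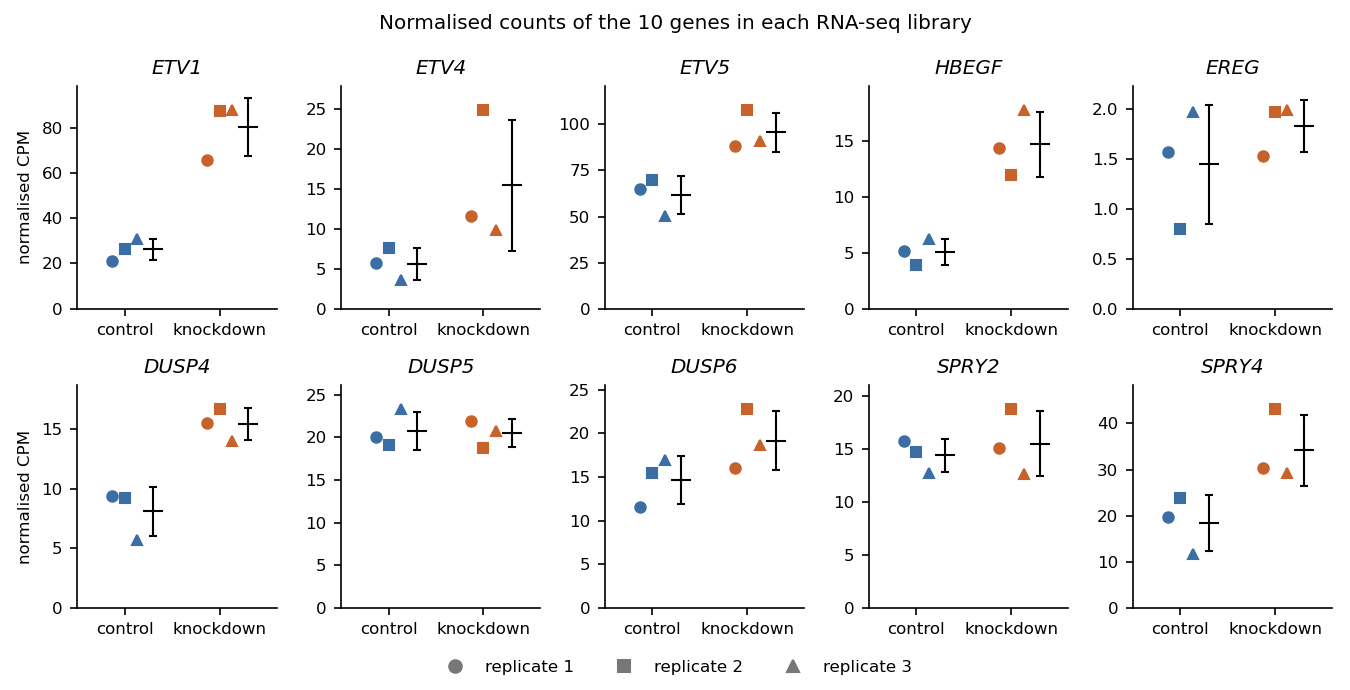
Normalised expression (CPM, y axis, linear from 0, scales differ) of each of the 10 genes in the 3 control (blue) and 3 knockdown (orange) libraries, with marker shapes for replicate numbers and the mean and SD in black. For ETV1, ETV4, ETV5, HBEGF, DUSP4 and SPRY4 all 3 knockdown points lie above all 3 control points, and for EREG, DUSP5, DUSP6 and SPRY2 the groups overlap.

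Counted together, 2 of the 10 members were called higher and 0 lower by edgeR's quasi-likelihood test, where 0.772% of all tested genes were called higher and 1.67% in either direction. With the replicate block 6 members were called higher (ETV1, ETV4, ETV5, HBEGF, DUSP4 and SPRY4), where 7.04% of all genes were called higher and 17.3% in either direction. The same 6 were called by DESeq2 (3.19% of all genes higher) and by edgeR without control replicate 3 (4.47% higher). Without any one of the other 5 libraries, control replicates 1 or 2 or knockdown replicates 1, 2 or 3, edgeR called 0 of the 10, ETV1 and HBEGF included, and at most 10 genes in all. In 6 of 10 members the groups did not overlap and the knockdown was higher, against 8.73% of all genes. Since the members were chosen with this contrast in view, nothing is read from these shares.

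The median log2 fold change of the members was 0.76, with 9 of 10 above 0, and that of all genes was −0.04, with 6293 of 13856 above 0. Between same-numbered libraries 8, 9 and 8 of the 10 members were higher in the knockdown in pairs 1, 2 and 3, with a median log2 ratio of 0.55, 0.86 and 1.08. Over all genes 40.0%, 46.4% and 50.7% were higher in those pairs. The pair with the largest median holds control replicate 3, the control lowest in ETV4, ETV5, DUSP4, SPRY2 and SPRY4 and highest in ETV1, HBEGF, EREG, DUSP5 and DUSP6.

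**Figure D2:**
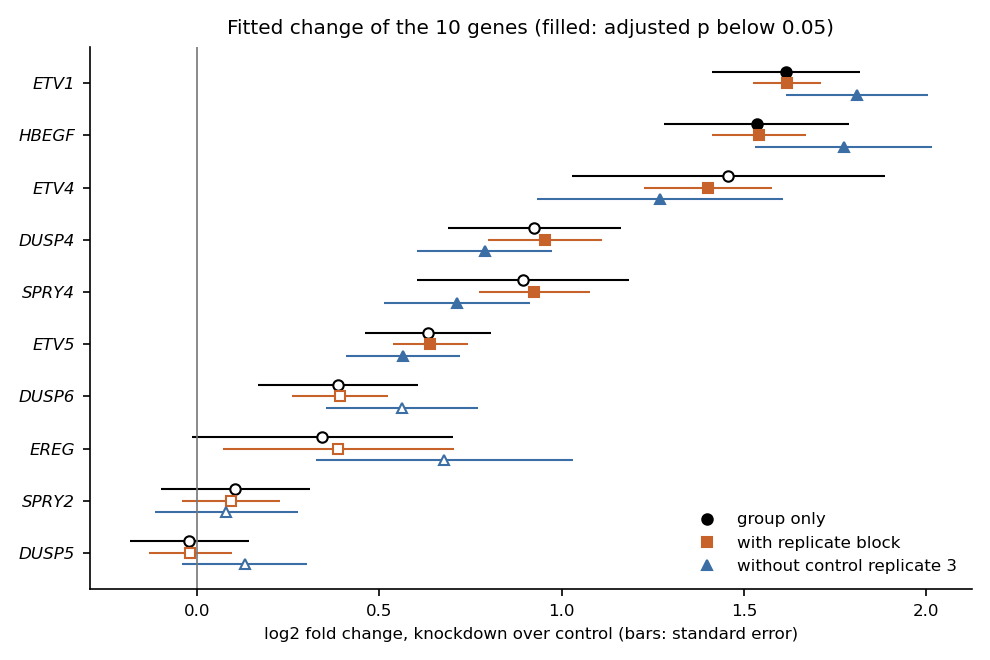
Fitted log2 fold change of the 10 genes (x axis, knockdown over control, bars are the standard error) with the group alone (black circles), with the replicate block (orange squares) and without control replicate 3 (blue triangles), filled where the adjusted p was below 0.05. ETV1 and HBEGF are filled in all 3 fits, and ETV4, DUSP4, SPRY4 and ETV5 in the other fits only. In each fit without a library other than control replicate 3, not drawn, 0 of the 10 genes were below 0.05.

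To compare levels between genes, CPM was divided by exonic length in kilobases. In control cells ETV5 was the most abundant member at 15.03 ± 2.47 CPM per kilobase, above 65.2% of all tested genes. DUSP5 followed at 8.23 ± 0.883, SPRY2 at 6.85 ± 0.747 and DUSP6 at 5.19 ± 0.985 CPM per kilobase, and the ranges over the 3 libraries of each of these 4 genes did not overlap with those of its neighbours among them. SPRY4 (3.69 ± 1.22), ETV1 (3.47 ± 0.633), ETV4 (2.27 ± 0.813), HBEGF (2.16 ± 0.504) and DUSP4 (1.92 ± 0.491) came next, and here each gene's range overlapped with the next, as did those of DUSP6 and SPRY4, so that their order is not settled. EREG was lowest and apart from DUSP4, at 0.312 ± 0.128 CPM per kilobase, above 9.29% of all genes. In the knockdown ETV1 was at 10.6 ± 1.696 CPM per kilobase, below ETV5 (23.3 ± 2.62) and overlapping in range with DUSP5 (8.11 ± 0.642), and HBEGF was at 6.25 ± 1.25.

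Relative exon use, which did not enter the choice of members although it comes from the same libraries, was tested with edgeR's diffSpliceDGE, which compares each exon with the other exons of its gene. Of 58 tested exons in 9 members (EREG had none), 0 passed at an adjusted p below 0.05 and 1 had an unadjusted p below 0.05. Over all 123109 exons tested 0.0% passed and 263 had an unadjusted p below 0.05. That is far below a share of 0.05, so the test was conservative here and does not show that exon use was unchanged. With the replicate block in edgeR 10 of all exons passed and 2424 had an unadjusted p below 0.05. Among the member exons these counts were 0 and 2. Without the block, the lone member exon was exon 2 of HBEGF (139705680 to 139705853), counted from the 5′ end. Of the counts in the tested HBEGF exons it held 4.37%, 1.72% and 1.35% in the controls and 6.20%, 6.30% and 4.13% in the knockdowns. Its log2 of relative use was 0.75 (unadjusted p = 0.0434, adjusted p = 1, edgeR).

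Of the counts in tested exons, exon 3 of HBEGF (139702404 to 139702581) held 6.20 ± 1.61% in controls and 11.3 ± 2.32% in knockdowns. The groups were apart, but the difference in exon 3 did not pass the test (unadjusted p = 0.0521, edgeR). How many of all exons had groups apart was not counted. The last exon, number 6, held 75.6 ± 5.50% and 65.2 ± 4.999%. For the last exon the groups overlapped, at 69.5% to 80.3% in controls and 60.0% to 69.96% in knockdowns, and the difference did not pass the test (unadjusted p = 0.503, edgeR). As a sign of RNA quality, the last exon's share was also taken over all exons of each gene, tested or not. Its median over 13261 genes was 39.4%, 38.5% and 42.7% in the controls and 40.6%, 38.7% and 40.8% in the knockdowns. Control replicate 3 had the highest last exon share among the controls in all members but EREG, for example 80.5% in DUSP4 against 62.0% and 54.1%, and its part in the member values was not tested. For ETV1 the last exon held 50.6%, 43.8% and 55.4% in the controls and 55.8%, 49.5% and 55.4% in the knockdowns, with overlapping groups.

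**Figure D3:**
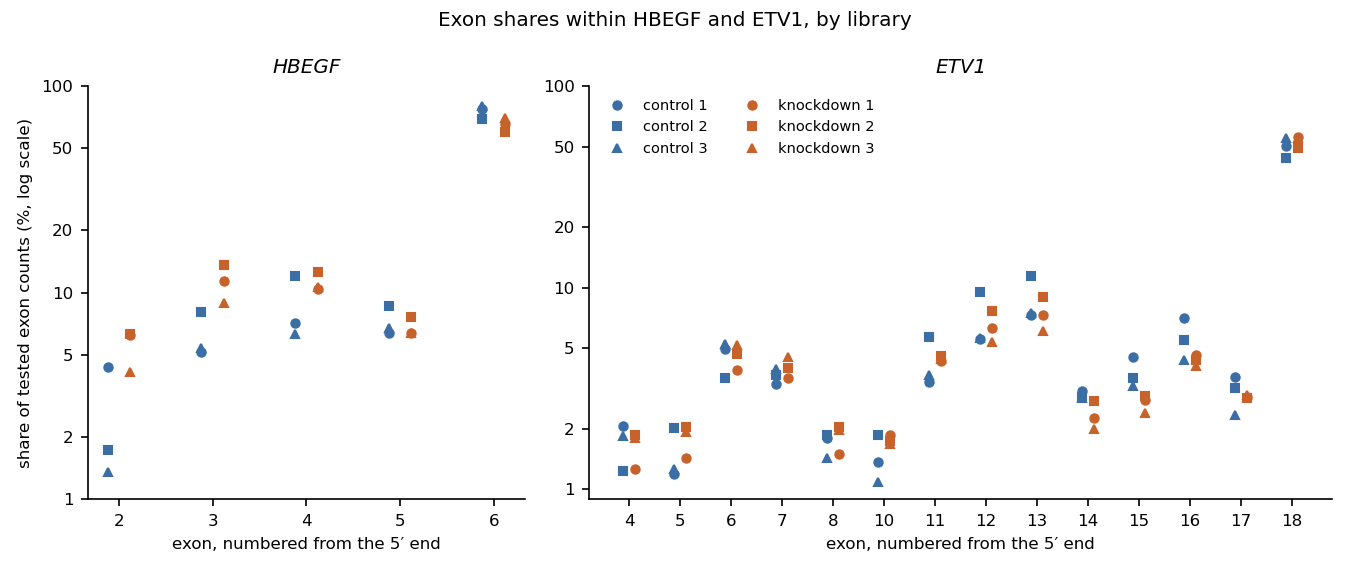
Share of each tested exon in the summed counts of the tested exons of HBEGF (left) and ETV1 (right), in percent on a log axis, against the exon's number from the 5′ end, for 3 control (blue) and 3 knockdown (orange) libraries. In HBEGF exon 3 lies higher in all 3 knockdown libraries than in all 3 controls, and in ETV1 the last exon overlaps between groups. No exon of either gene passed the test of relative use.

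The iCLIP lists give positions of MSI1 crosslinks in WT cells and took no part in the knockdown contrast. On the strand of the gene the 10 members held 605, 31 and 44 sites in replicates 1, 2 and 3, of which 485, 19 and 26 were in introns, 108, 12 and 15 in the last exon and 12, 0 and 3 in other exons. ETV5 held the most of the members, with 318, 16 and 20 sites, followed by ETV1 with 148, 10 and 14 and SPRY4 with 74, 2 and 2. The median tested gene held 22, 2 and 3.

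HBEGF, which rose almost as much as ETV1, had 1 site in replicate 1, at position 139692817 in its last exon, and 0 listed in replicates 2 and 3. EREG had 1, 0 and 0, and DUSP5 had 5, 1 and 0. The remaining genes were DUSP6 with 16, 0 and 5, SPRY2 with 20, 1 and 0, ETV4 with 12, 0 and 2, and DUSP4 with 10, 1 and 1. The lists differ in size, the genes differ in length and level, and no control iCLIP sample was analysed here, so the counts are a description.

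Per kilobase of gene in replicate 1, ETV5 (5.06), SPRY4 (5.06), SPRY2 (4.02) and DUSP6 (3.59) were above the median of all genes (0.871), as was ETV1 (1.48). DUSP4 (0.686), ETV4 (0.647), DUSP5 (0.366), HBEGF (0.0727) and EREG (0.0423) were below it. This split was made in replicate 1 only and does not carry over to every list. In replicate 2 (median 0.0641) DUSP6 had 0 sites, and DUSP4 and DUSP5 had 1 each over 14.6 and 13.7 kilobases. In replicate 3 (median 0.106) SPRY2 had 0 sites, and ETV4 had 2 over 18.6 kilobases. In DUSP6 13 of 16 sites in replicate 1 and 4 of 5 in replicate 3 were in the last exon. In ETV1 the last exon held 23 of 148, 1 of 10 and 3 of 14 sites in replicates 1, 2 and 3, and in ETV5 52 of 318, 9 of 16 and 7 of 20. These genes differ in how much of their length the last exon takes up, and the shares were not tested against each other.

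Sites in all 3 lists on the gene's strand were found in 4 of the 10 members (ETV1, ETV5, DUSP4 and SPRY4), against 62.8% of all tested genes. No single nucleotide of any member was in all 3 lists, and none within 5 nucleotides either. Single nucleotides in 2 lists were 13900855, 13900832 and 13968819 in ETV1, 187275524 and 187276522 in ETV5 and 141684081 in SPRY4. Of these, 13900855 and 13900832 were in the last exon of ETV1 and the others were in introns. The p-value the authors gave for 13900855 was 0.0275 in replicate 1 and 0.520 in replicate 2. Of the 605, 31 and 44 member sites 19, 1 and 3 had such a p-value of at most 0.05. Of these, 10, 1 and 2 were among the 318, 16 and 20 sites of ETV5, the member with the most sites. Of all listed sites, on either strand, 4.404%, 2.767% and 3.744% had such a p-value in replicates 1, 2 and 3. Whether the members differed from all sites in this share was not tested.

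**Figure D4:**
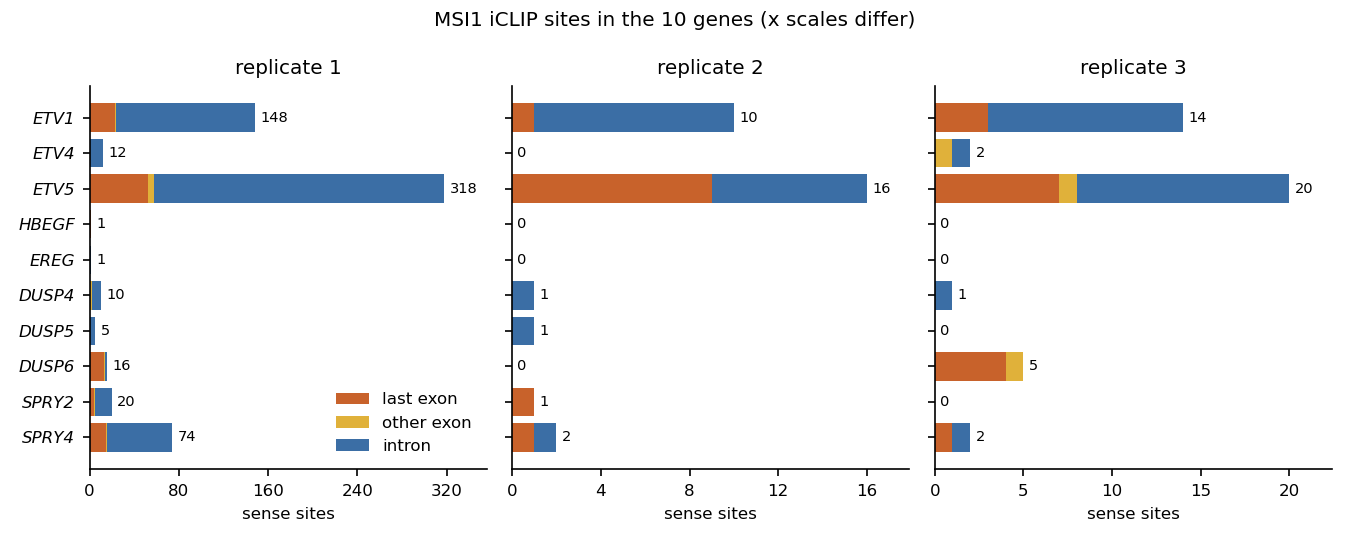
Number of MSI1 iCLIP sites on the gene's strand in each of the 10 genes (x axis, scales differ between panels, numbers at bar ends are totals) in the 3 iCLIP replicates, coloured by last exon, other exon and intron. ETV5, ETV1 and SPRY4 hold most sites in replicate 1, and HBEGF and EREG hold 1 each there and 0 in replicates 2 and 3.

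The 3′ UTRs of the members were searched for short words, in GENCODE release 29 annotation on GRCh38, which matched 11587 of the 13856 tested genes (83.6%) and all 10 members. TACATTT, shown above, was in 4 of the 10 (ETV1 and DUSP4 with 2 matches each, ETV5 and HBEGF with 1), and in 28.0% of all matched UTRs. A second word picked in the same earlier analysis, GCAGGAA, was in SPRY4 alone (1 match) and in 16.9% of all UTRs. MSI1 is known to bind GUAGU and AUAGU, here GTAGT and ATAGT in DNA letters. GTAGT was in 8 of the 10 members, all but SPRY2 and ETV4, and in 54.6% of all UTRs, and ATAGT in 8 of 10, all but HBEGF and ETV4, and in 57.2%.

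The members' UTRs differ in length, and for each gene the longest annotated UTR was searched. ETV1, ETV5, EREG, DUSP4, DUSP6 and SPRY4 had UTRs longer than the median of 1482 bases, and the other members had shorter ones. A longer UTR has more room for a short word, and the shares of UTRs with a word were not corrected for length. ETV1, with the longest member UTR (4638 bases), held 7 ATAGT matches and 1 GTAGT, ETV5 (2331 bases) held 4 and 1, and ETV4, with the shortest (675 bases), held 0 of either. HBEGF (1456 bases, near the median of 1482) held 0 ATAGT and 1 GTAGT, at chr5:140333504-140333530, shown here because it is the only copy of either known MSI1 word in the UTR of the ligand that rose.
HBEGF GTAGT: gtgacccatctGTAGTaatttattgtc
The AU-rich word TATTTAT, a mark of short-lived transcripts, was in 7 of the 10 and in 37.6% of all UTRs. It was found 4 times each in EREG, DUSP4 and SPRY4, 2 times each in HBEGF and SPRY2 and 1 time each in ETV1 and ETV5, and not in ETV4, DUSP5 or DUSP6. A match is a run of letters and not a shown binding site, and the builds of the UTRs and of the iCLIP sites differ, so the positions were not compared.

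Promoter sequences, from 250 bases before to 50 after the start (RefSeq, GRCh38.p14), were at hand for 6 members, ETV1, HBEGF, EREG, DUSP6, SPRY2 and SPRY4. They were searched on both strands for an ETS word (CCGGAAG, in 10.7% of 27305 promoters), an AP-1 word (TGACTCA, 4.92%), the CIC words TGAATGA (4.07%) and TGAATGG (3.22%) and a CRE word (TGACGTC, 3.63%). The only match was TGAATGA in DUSP6, 133 bases before the start. That promoter (chr12:89352452-89352751, minus strand) is shown for this reason, with the match in capitals.
DUSP6 promoter: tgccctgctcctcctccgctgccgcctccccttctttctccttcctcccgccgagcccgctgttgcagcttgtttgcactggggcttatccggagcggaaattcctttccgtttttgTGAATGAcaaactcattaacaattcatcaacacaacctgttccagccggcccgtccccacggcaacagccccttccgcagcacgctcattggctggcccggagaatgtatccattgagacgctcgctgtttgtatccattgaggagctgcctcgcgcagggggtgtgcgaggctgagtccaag
For the other 5 members, ETV1 and HBEGF included, the result says only that these letters are not in this window.

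The rest of the pathway was described from 8 lists of 89 genes, of which 80 were tested. By edgeR 1 of the 80 was called higher and 0 lower, against 1.67% of all genes in either direction, and the median log2 fold change was 0.01. With the replicate block 9 were called higher and 9 lower, against 17.3% of all genes, so that neither count is far from the share of all genes. The called gene was EMP1, a membrane protein induced by growth factor signalling, at 39.0, 34.0 and 43.7 CPM in the controls and 98.4, 86.8 and 82.3 in the knockdowns (log2 fold change 1.198, SE 0.16, adjusted p = 0.0181, edgeR).

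Ligands, receptors and sheddases act upstream of the phosphatase, Sprouty and ETV members, while HBEGF and EREG are ligands themselves. In the 5 tested ERBB ligands other than HBEGF and EREG the median log2 fold change was −0.13, with 0 called. TGFA measured 31.1 ± 6.89 CPM in the controls and 57.9 ± 14.6 in the knockdowns (0.89, adjusted p = 0.135, and 0.00673 with the block), NRG1 at −0.38 and EGF at −0.21. The 8 ERBB and FGF receptors had a median of −0.30, with 0 called. EGFR, the receptor of HBEGF and EREG, was at 145.8, 154.4 and 152.2 CPM in the controls and 100.5, 98.8 and 106.3 in the knockdowns (−0.57, adjusted p = 0.0661, and 0.00673 with the block). FGFR2 was at −0.62 and FGFR4 at 1.07. The 4 sheddases had a median of −0.31 (−0.07 without control replicate 3) and 0 called, with ADAM12 at −0.60, ADAM9 at −0.40 and ADAM10 at −0.23. With the block TGFA was called higher, and NRG1 (adjusted p = 0.0302), EGFR, FGFR2 (0.0219), ADAM12 (0.00410) and ADAM9 (0.0227) were called lower.

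The RAS-ERK core of 22 genes had a median of 0.01 and 0 called. Its adaptor SHC1 measured 163 ± 44.2 CPM in the controls and 336 ± 58.7 in the knockdowns (1.04, adjusted p = 0.0785, and 0.00236 with the block). The phosphatase PTPN11 was at −0.56 and NRAS at 0.55, with adjusted p of 0.00713 and 0.00798 with the block. The 7 other dual-specificity phosphatases, relatives of DUSP4, DUSP5 and DUSP6, had a median of 0.26 with 7 of 7 above 0 and 0 called, also 0 with the block. Without control replicate 3 their median was 0.13 with 5 of 7 above 0, without knockdown replicate 2 it was 0.13 with 6 of 7, and without control replicate 2 it was 0.56. DUSP10 was at 0.53, and DUSP9 (0.56) and DUSP2 (0.43) were below 1 CPM in each library. Of the 13 tested other negative regulators (median 0.11, 0 called) IL17RD, an inhibitor of FGF signalling, measured 71.6 ± 0.962 CPM in the controls and 107 ± 9.68 in the knockdowns (0.58, adjusted p = 0.0783, and 0.0113 with the block). CBL was at −0.31 and LRIG1 at 0.40 (0.0325 and 0.0416 with the block).

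The 13 tested ETS factors outside the ETV1, ETV4 and ETV5 group had a median of 0.01, with 0 called. ETS1 measured 161 ± 26.8 CPM in the controls and 98.7 ± 10.4 in the knockdowns (−0.70, adjusted p = 0.0892, and 0.00435 with the block), opposite in sign to the 3 ETV factors, and ELK4 was at 0.55 and ELK3 at 0.35 (adjusted p of 0.0260 and 0.0392 with the block). The 8 tested other ERK output genes had a median of −0.08, with EMP1 called, PLAUR at 0.85 (adjusted p = 0.00818 with the block) and EPHA4 at 0.33. EPGN, NRG3, NRG4, ETV2, ETV7 and ERG were below the filter. AREG, SPRY3 and IER3 were not among the counted genes under these symbols. The difference between the members and these lists was not tested, since the members were chosen by their fold changes.

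**Figure D5:**
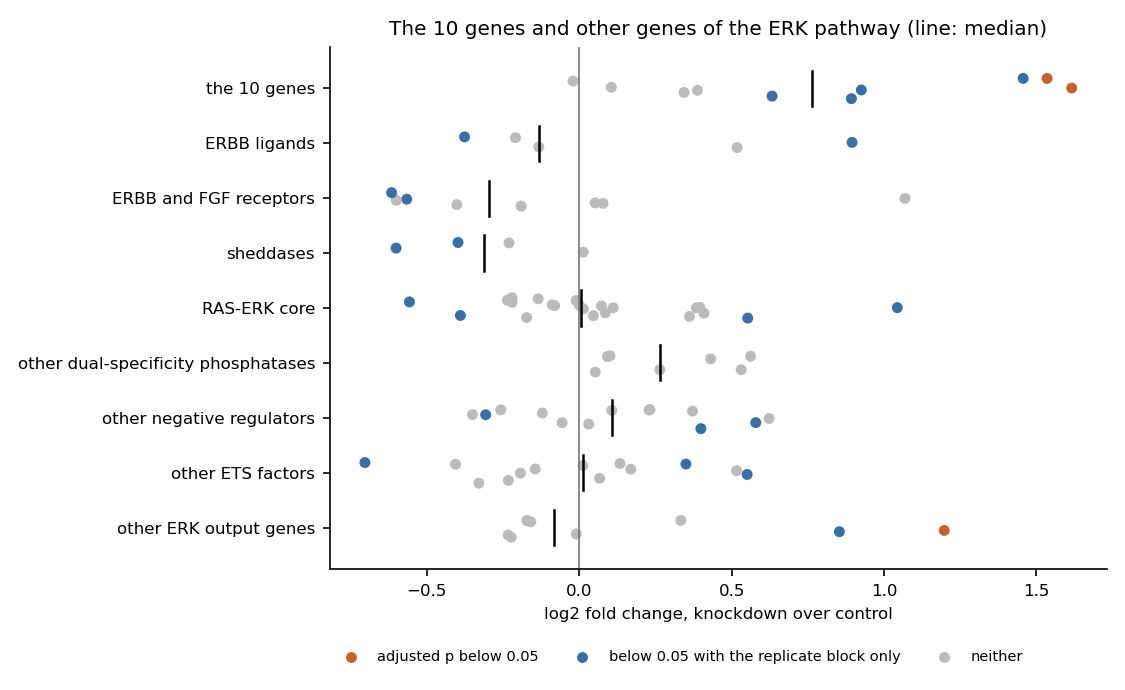
Fitted log2 fold change (x axis, knockdown over control) of the 10 genes and of the tested genes of 8 other ERK pathway lists (rows), orange where the adjusted p was below 0.05, blue where it was so with the replicate block only, with the median of each row as a black line. The medians of the 8 lists lie between −0.31 and 0.26, and that of the 10 genes is 0.76. The 10 genes were chosen with these fold changes in view, so nothing is read from that difference.

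For ETV1, HBEGF and DUSP6 the genes with the most similar pattern were found as those with the smallest root mean square difference of centred log2 CPM over the 6 RNA-seq libraries, among 10701 genes with a mean log2 CPM of at least 2. For ETV1 these were AP1S3 (0.108), SLC16A4 (0.109) and ITPR1 (0.159). For HBEGF they were SMAD5 (0.0950), ABCB4 (0.115) and TGFBR1 (0.139), and for DUSP6 PLD1 (0.0877), KCNK2 (0.0880) and HK2 (0.109). HBEGF was the nearest other member to ETV1, and ETV1 to HBEGF, at 0.300, rank 42 in the order from ETV1 and rank 53 in the order from HBEGF. Distances between members were computed from ETV1, HBEGF and DUSP6 only. The distance from ETV1 to the other ETV factors was 0.570 for ETV5 and 0.581 for ETV4. The 3 genes nearest to ETV1 had log2 fold changes of 1.73 to 1.79 and the 3 nearest to HBEGF of 1.40 to 1.52, since the measure over 6 libraries in 2 groups includes the knockdown difference.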

How the data were processed

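U251 samples were 3 control and 3 knockdown RNA-seq libraries and 3 MSI1 iCLIP libraries of control cells, with groups and replicate numbers from the titles. The authors deposited raw counts per gene and per exon, and lists of iCLIP sites with a p-value per site, on hg18 per the submitters' processing notes. The aligner, counter, strand setting and site caller were not given in the sources used here. Protocol text in the labels describes iCLIP, is attached to the RNA-seq samples too, and speaks of combined replicates, while the files hold 3 per group. No member overlapped another gene of the tables.

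Gene counts were tested with edgeR 4.0.16 (R 4.3.3; quasi-likelihood, TMM, filterByExpr, Benjamini-Hochberg over all genes tested, threshold 0.05, group only) and exons with diffSpliceDGE, both tested on simulated data. Alternatives were DESeq2 1.42.0, its size factors, no filter, the replicate block and leaving out each library. Correlations of same-numbered libraries, as deviations from group means, were 0.32, 0.73 and 0.75, above the bound of 0.1. Numbers from the titles were therefore taken to pair samples, a choice that rests on these same libraries. Control replicate 1 correlated more with knockdown replicate 2 (0.49). The part of control replicate 3 in these correlations was not tested. The block fit leaves 2 residual degrees of freedom, against 4 with the group only. No 2 RNA-seq libraries of the same group agreed within sampling noise.

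The members and lists were chosen with earlier results of these data known. Named genes are the members, MSI1, up to 3 genes of lowest p per list, and the 3 most similar genes to ETV1, HBEGF and DUSP6. Log2 CPM used a prior count of 2. Each SE of an edgeR gene fit was derived from the test, as the absolute log2 fold change divided by the square root of the F statistic.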

Additional observations from a re-analysis of the deposited data

How the results depend on the processing

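EREG, with 31 to 79 counts per library, had the fewest counts of the members. Of 100 member fold changes under alternatives, 71 kept their direction and side of the threshold, 12 newly passed, 10 no longer passed (ETV1 and HBEGF, each without 1 of 5 libraries) and 7 changed sign. With the replicate block 2398 genes were called against 232, with 6 members against 2, 18 pathway list genes against 1, and an MSI1 log2 fold change of −1.97. DESeq2 called 798 genes, 6 members and 7 list genes, with MSI1 at −1.92. Leaving out 1 library gave 0 to 1028 genes (1028 without control replicate 3), 0 to 6 members, 0 to 10 list genes, and MSI1 at −2.35 to −1.69, past the threshold without control replicate 3 (−2.21). Nucleotides of members present in every list kept numbered 0 to 4 without 1 iCLIP list. The DUSP5 fold change turned positive with DESeq2's size factors (0.0238), DESeq2 (0.0244) and no filter (0.0233), and ranged from −0.0820 to 0.131 with 1 library left out, positive without control replicate 3, knockdown 2 or knockdown 3. SPRY2 ranged from −0.0550 to 0.284, negative without knockdown replicate 2. Medians of the 8 pathway lists with 1 library left out ranged from −0.42 to 0.56, and those of ERBB ligands (−0.21 to 0.04), RAS-ERK core (−0.02 to 0.06), other ETS factors (−0.07 to 0.12) and other ERK output genes (−0.16 to 0.18) took both signs. DESeq2's size factors moved the median of all genes by 0.05 (log2).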
